A study of Mus musculus with 15 samples.

Results

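The mitochondrial ribosomal proteins were taken as every gene whose annotated mouse symbol starts with Mrpl or Mrps followed by a number. This gave 78 of the 19532 genes that the arrays measured. These 78 genes carried 129 probes, which were averaged per gene. Of the 78, 51 encode proteins of the large subunit and 26 proteins of the small subunit. Mrps36 carries the name but is not part of the ribosome: its product is a component of the alpha-ketoglutarate dehydrogenase complex. No filter on low values was applied, so all 78 genes entered every comparison.

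The study compared hearts lacking Acsl1, an acyl-CoA synthetase that activates long-chain fatty acids for oxidation, with hearts that kept it. Male Acsl1H-/- mice and their Acsl1flox/flox littermates, 6 to 8 weeks old, were injected with tamoxifen at 75 mg/kg on 4 consecutive days, and ventricles were collected 2 or 10 weeks later. The 15 arrays fell into 4 groups of C57Bl/J6 hearts: Acsl1flox/flox at 2 weeks (n = 4), Acsl1H-/- at 2 weeks (n = 3), Acsl1flox/flox at 10 weeks (n = 4) and Acsl1H-/- at 10 weeks (n = 4), called controls and knockouts below. All groups received tamoxifen. The labels name neither the promoter that drives the recombinase nor a group that carries the recombinase without the floxed alleles, so tamoxifen acting through the recombinase and loss of Acsl1 cannot be told apart. The deletion was not checked, since Acsl1 was not analysed here.

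Mitochondria carry their own ribosomes, which translate the few proteins that the mitochondrial genome encodes, all of them subunits of the respiratory chain and of ATP synthase. The ribosomal RNAs come from the mitochondrial genome, whereas all mitochondrial ribosomal proteins are encoded in the nucleus, translated in the cytosol and imported. Some have counterparts in the bacterial ribosome and others occur only in mitochondrial ribosomes. Heart muscle is among the tissues richest in mitochondria, and in humans inherited defects of several of these proteins cause cardiomyopathy.

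Each array carried heart RNA in 1 colour and a whole-mouse reference RNA in the other, and the deposited values are log ratios, taken here as log2 of heart over reference and centred so that every probe has a median of 0 over the 15 arrays. They compare arrays within a gene and hold no expression level, so neither the rank of the 78 genes by abundance nor the presence of heart muscle markers could be read. The log base is not given in the sources used here, so the size of every log2 difference below rests on that reading. The direction of the ratio follows the dyes named in the labels and is therefore likely, not certain. Were it reversed, higher values below would be lower ones. Array medians ran from -0.021 to 0.032. Of 10 lists of cell type markers, those of red blood cells and endothelium separated the 2-week knockouts from the 2-week controls. The 4 red blood cell markers had means between -0.67 and -0.47 in the knockouts against -0.39 to 0.12 in the controls, and the 7 endothelial markers between 0.16 and 0.25 against -0.10 to 0.11. All 8 fibroblast markers stood higher in the 2-week knockouts, with a median difference of 0.41, and their means, 0.19 to 0.82 against -0.12 to 0.25, overlapped. The 4 atrium markers overlapped too but had the widest range, from -0.93 to 3.30 in the 2-week controls against -0.60 to 0.30 in the knockouts. Of these 4 markers 1 stood higher in the 2-week knockouts, and the median difference was -1.19. At 10 weeks these lists overlapped between the genotypes. Of the 8 fibroblast markers 7 still stood higher in knockouts, with a median difference of 0.25. That list had means between -0.10 and 0.21 in knockouts against -0.23 to -0.04 in controls. The 8 cardiomyocyte markers had means between -0.21 and -0.01 against -0.05 to 0.13. Of these 8, 4 stood higher in knockouts, and the median difference was -0.0096. The part of cell composition in the results below was not tested.

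The first question was whether the 78 genes as a group stood at another level in knockout hearts. At 10 weeks their mean on an array was 0.077 ± 0.034 (SD, n = 4) in knockouts and 0.0068 ± 0.0165 (n = 4) in controls, and at 2 weeks it was -0.057 ± 0.042 (n = 3) in knockouts and -0.033 ± 0.068 (n = 4) in controls. The 4 knockout hearts at 10 weeks had means of 0.051, 0.050, 0.085 and 0.122. The other 11 arrays lay between -0.116 and 0.031, so every 10-week knockout array stood above every other array. That gap nearly closed over the 51 genes with 1 probe or with probes correlating over 0.3. There the lowest 10-week knockout stood at 0.046 and 2-week control replicate 2 at 0.045. In bulk ventricle RNA, fewer cells of a type and less RNA per cell cannot be told apart.

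**Figure D1:**
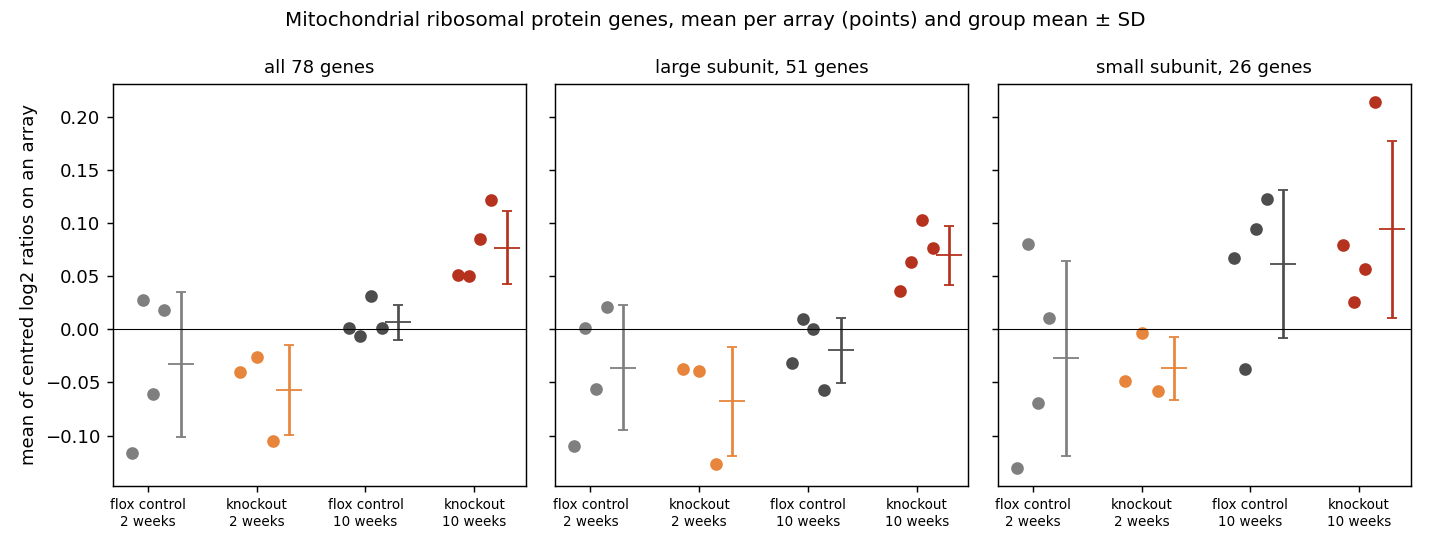
Mean centred log2 ratio of the mitochondrial ribosomal protein genes on each of the 15 arrays (points) by group, with the group mean ± SD, for all 78 genes, the 51 large subunit genes and the 26 small subunit genes. Over all 78 genes the 10-week knockouts lie at 0.050 to 0.122 and the 10-week controls at -0.006 to 0.031; over the small subunit alone the groups overlap.

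The SD of this mean between arrays of a group, pooled over the 4 groups, was 0.044. On the 10-week knockout arrays 61.5%, 57.7%, 71.8% and 75.6% of the 78 genes lay above 0, against 39.7%, 42.3%, 53.8% and 39.7% on the 10-week controls. The large subunit genes gave means of 0.036, 0.063, 0.103 and 0.077 in the knockouts and of -0.032, 0.010, 0.000 and -0.057 in the controls, which did not overlap. The small subunit genes gave 0.079, 0.026, 0.057 and 0.214 in the knockouts and 0.067, -0.037, 0.094 and 0.123 in the controls, which did. Single genes with a wide spread weigh on these means. Mrps18b, with 1 probe, read -0.19, 0.00, -0.67 and 1.98 in the knockouts and 0.77, -0.57, 0.58 and 1.54 in the controls. Whether the subunits differed was not tested. Over all 19532 genes the mean per array ran from 0.025 to 0.052 in the 10-week knockouts and from 0.026 to 0.065 in the 10-week controls.

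Gene by gene, 56 of the 78 genes (71.8%) had a higher mean in knockouts than in controls at 10 weeks, where 46.5% of all genes did. Their median log2 difference was 0.066, against -0.018 over all genes, and single genes ran from -0.80 to 0.60. No gene of the 78 passed the test, limma with Benjamini-Hochberg adjustment over all genes, at which 0.686% of all genes were called, and the smallest adjusted p was 0.0765. Before adjustment, p lay under 0.05 for 10 of the 78 (12.8%) on the higher side and for 1 on the lower side, against 4.75% and 5.21% of all genes. In 12 genes (15.4%) every knockout array lay above every control array, and in 1 gene every knockout array lay below, against 3.24% and 3.36% of all genes.

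The 12 were Mrpl1, Mrpl12, Mrpl15, Mrpl40, Mrpl43, Mrpl48, Mrpl49, Mrpl54 and Mrps18a of the large subunit and Mrps6, Mrps10 and Mrps34 of the small subunit. The single gene in the other direction was Mrps11, a small subunit protein with a bacterial counterpart. Mrpl12, Mrpl15, Mrpl48, Mrpl54, Mrps10, Mrps18a, Mrps34 and Mrps11 rest on 1 probe each. For them agreement between probes could not be checked. Split by origin, 32 of 46 genes with a bacterial counterpart lay above 0, with a median of 0.048, and 22 of 29 that occur only in mitochondria did, with a median of 0.10. By subunit, 37 of 51 large subunit genes lay above 0 with a median of 0.085, and 18 of 26 small subunit genes with a median of 0.045.

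**Figure D2:**
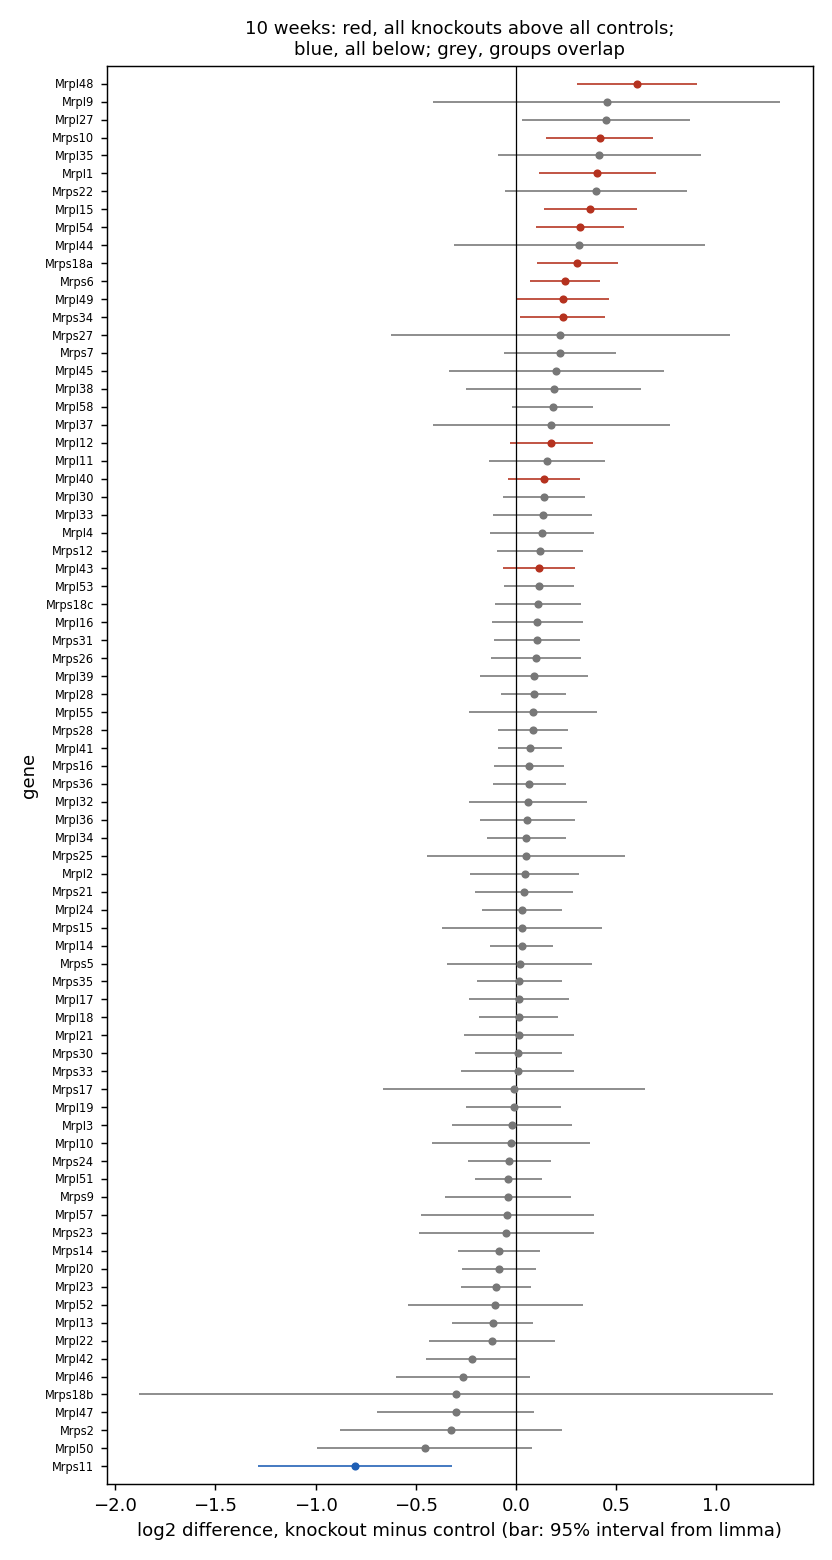
Log2 difference between knockout and control hearts at 10 weeks for each of the 78 genes, with its 95% interval from limma. Red marks the 12 genes in which all 4 knockout arrays lie above all 4 control arrays, blue marks Mrps11 (-0.80), in which all lie below, and grey marks genes whose groups overlap.

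The promoters of the 78 genes were also described where the start site is on record. The motif shares below belong to the gene family and do not depend on the expression values. Promoters of these genes are known for sites of NRF1, of the ETS factor GABP and of YY1, which switch on nuclear genes for mitochondrial proteins. RefSeq promoters (build GRCm38.p6), 250 bases before to 50 after a start, were on hand for 69 of the 78 genes, 75 promoters in all, and were searched on both strands. The NRF1 motif, GCGC then any base then TGCGC, occurred in 17.3% of them, against 6.99% of the 19205 promoters of genes on the arrays and 4.60% of all 32851 promoters. The ETS motif CCGGAAG occurred in 34.7% against 12.4% and 8.86%, and the YY1 motif AAGATGG in 17.3% against 6.46% and 6.34%. The SP motif GGGCGG, given for comparison, occurred in 52.0% against 49.6% of array gene promoters and 35.7% of all. At least 1 of the first 3 motifs was found in 43 of the 75 promoters (57.3%), against 4421 of the 19205 promoters of array genes and 18.0% of all promoters. In 2 member promoters matches of different motifs shared bases. The 150 bases before the start are printed for genes that differ in these motifs, 5′ to 3′, with matches to the NRF1, ETS and YY1 motifs in capitals.
Mrpl12 (chr11:120484487-120484636, plus strand): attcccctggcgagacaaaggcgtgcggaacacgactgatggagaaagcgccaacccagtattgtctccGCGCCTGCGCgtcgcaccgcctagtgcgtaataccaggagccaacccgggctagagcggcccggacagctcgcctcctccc
Mrpl48 (chr7:100583131-100583280, minus strand): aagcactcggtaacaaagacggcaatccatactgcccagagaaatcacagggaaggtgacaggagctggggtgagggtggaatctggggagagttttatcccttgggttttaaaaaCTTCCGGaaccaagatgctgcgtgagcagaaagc
Mrps18a (chr17:46110854-46111003, plus strand): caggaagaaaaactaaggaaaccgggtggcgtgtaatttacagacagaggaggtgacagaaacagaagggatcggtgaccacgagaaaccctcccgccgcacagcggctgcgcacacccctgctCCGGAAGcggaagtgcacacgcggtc
Mrpl43 (chr19:45006443-45006592, minus strand): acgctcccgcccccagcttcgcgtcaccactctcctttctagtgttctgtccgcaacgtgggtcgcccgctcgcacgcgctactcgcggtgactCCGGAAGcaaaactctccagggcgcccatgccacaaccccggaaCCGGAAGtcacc
Mrps11 (chr7:78782981-78783130, plus strand): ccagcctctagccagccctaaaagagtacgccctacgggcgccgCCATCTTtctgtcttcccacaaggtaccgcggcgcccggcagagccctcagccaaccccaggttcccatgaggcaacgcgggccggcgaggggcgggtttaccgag
Mrpl46 (chr7:78783090-78783239, minus strand): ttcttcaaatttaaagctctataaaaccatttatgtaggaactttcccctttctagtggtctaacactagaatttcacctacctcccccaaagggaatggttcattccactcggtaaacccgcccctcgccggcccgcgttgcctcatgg
Mrps10 (chr17:47369047-47369196, plus strand): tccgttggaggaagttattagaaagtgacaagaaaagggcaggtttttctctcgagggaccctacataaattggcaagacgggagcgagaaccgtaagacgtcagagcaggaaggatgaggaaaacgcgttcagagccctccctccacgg

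Mrpl12 holds an NRF1 match 81 bases before its start. Mrpl48, at 1 of its 4 recorded starts, holds an ETS match on the opposite strand 34 bases before it. Mrps18a has an ETS match 26 bases before its start and a YY1 match 11 bases after it, beyond the bases printed. Mrpl43 has 2 ETS matches, at 56 and 12 bases before its start. The starts of Mrps11 and Mrpl46 lie 42 bases apart on opposite strands, so their windows overlap, and only Mrps11 holds a match, the YY1 motif on the opposite strand. None of the 3 motifs was found in the window of Mrps10, which says only that these letters are absent there. A match is a description of sequence and not evidence of binding.

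The response at 10 weeks was also set out by motif. The median difference was 0.059 for the 26 genes with an ETS match and 0.060 for the 43 without. It was 0.089 for the 13 genes with an NRF1 match and 0.054 for the 56 without, and 0.12 for the 13 genes with a YY1 match and 0.051 for the 56 without. For the SP comparison motif the order was the opposite, 0.037 for the 34 genes with it and 0.088 for the 35 without. At 2 weeks the medians were -0.085 with an NRF1 match and -0.029 without, and -0.063 with a YY1 match and -0.029 without. They were -0.029 and -0.036 for the ETS motif and -0.043 and -0.021 for the SP motif. The medians at both times carry no test.

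Mrpl48, a large subunit protein found only in mitochondria, had the largest difference on the higher side and the smallest p of the 78 genes at 10 weeks. The knockouts read 0.19, 0.41, 0.41 and 0.44 and the controls -0.33, -0.07, -0.25 and -0.32. No knockout came near the highest control. The log2 difference was 0.60 ± 0.14 (SE), with an adjusted p of 0.0765 from limma, which became 0.0382 without 2-week control replicate 1 and 0.0454 without 2-week control replicate 3, arrays that enter only the estimate of the spread. At 2 weeks its groups overlapped, at -0.13, 0.22 and 0.00 in knockouts and -0.39, 0.01, 0.30 and 0.00 in controls.

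Mrpl15, which has a counterpart in the bacterial large subunit, read 0.00, 0.09, 0.17 and 0.22 in the 10-week knockouts and -0.31, -0.10, -0.19 and -0.41 in the 10-week controls. The groups did not overlap, and the difference was 0.37 ± 0.11 with an adjusted p of 0.183. The controls carried much of it: at 2 weeks they had read 0.24, 0.00, 0.06 and 0.09, all above the 10-week controls. The 2-week knockouts read 0.10, -0.16 and -0.29, a difference from their controls of -0.21 ± 0.12 (adjusted p = 0.750).

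Mrps10, a protein of the head of the small subunit, had lower values in knockouts at 2 weeks and higher values at 10 weeks. Its knockouts read -0.19, -0.21 and -0.48 at 2 weeks and 0.30, 0.57, 0.09 and 0.49 at 10 weeks, without overlap between the times. Its controls read 0.03, 0.00, -0.22 and 0.08 at 2 weeks and -0.23, -0.03, 0.06 and -0.02 at 10 weeks. The difference from controls was -0.27 ± 0.13 (adjusted p = 0.720) at 2 weeks, with 1 control among the knockouts, and 0.42 ± 0.12 (adjusted p = 0.195) at 10 weeks.

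Mrpl1, the protein of the stalk beside which tRNAs leave the ribosome, showed the same order. The knockouts read -0.34, -0.26 and -0.38 at 2 weeks, below all controls (-0.12, -0.07, 0.06 and 0.02). At 10 weeks the knockouts read 0.12, 0.19, 0.18 and 0.52, and the controls 0.03, -0.24, 0.12 and -0.51, so that the lowest knockout stood just above the highest control. The differences were -0.30 ± 0.15 (adjusted p = 0.711) and 0.40 ± 0.14 (adjusted p = 0.269). Its 3 probes gave 0.29, 0.39 and 0.54 at 10 weeks and -0.09, -0.67 and -0.13 at 2 weeks.

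Mrps18a, Mrpl54 and Mrps6 each had their highest array among the 10-week knockouts. Mrps18a is 1 of 3 mammalian relatives of a bacterial small subunit protein and sits, despite its name, in the large subunit. It read 0.23, 0.35, 0.35 and 0.12 in the 10-week knockouts and -0.04, 0.00, 0.00 and -0.14 in the 10-week controls, a difference of 0.30 ± 0.09 (adjusted p = 0.211). At 2 weeks its difference was -0.03 ± 0.10 and its groups overlapped.

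Mrpl54, found only in mitochondria, read 0.18, 0.28, 0.33 and 0.18 in the 10-week knockouts and 0.00, 0.00, -0.01 and -0.29 in the controls (0.32 ± 0.10, adjusted p = 0.244). Mrps6, the counterpart of a bacterial small subunit protein, read 0.23, 0.33, 0.06 and 0.25 against -0.01, -0.08, -0.01 and 0.00 (0.24 ± 0.08, adjusted p = 0.266). In both genes all 4 knockouts stood above all controls. In Mrpl54, however, 1 control lay far below the other 3.

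Mrpl12, the counterpart of the stalk protein through which bacterial ribosomes recruit translation factors, had a narrow gap. The 10-week knockouts read 0.02, 0.03, 0.05 and 0.10 and the controls -0.05, -0.01, -0.27 and -0.17, a difference of 0.18 ± 0.10 (adjusted p = 0.607). At 2 weeks its groups overlapped (0.10 ± 0.10, adjusted p = 0.856).

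Of the others without overlap at 10 weeks, Mrpl49 differed by 0.24 ± 0.11, Mrps34 by 0.23 ± 0.10, Mrpl40 by 0.14 ± 0.08 and Mrpl43 by 0.11 ± 0.08, and their adjusted p ran from 0.435 to 0.742. The 3 probes of Mrpl49 gave 0.26, 0.22 and 0.23. Mrpl27, whose bacterial counterpart lies beside the site of peptide bond formation, was higher by 0.45 ± 0.19 (adjusted p = 0.450) with overlap: its knockouts read 0.55, 1.00, 0.06 and 0.10 and its controls -0.05, 0.34, -0.23 and -0.14. The first 2 knockouts made most of that difference.

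Mrps11 stood apart from the rest. The 10-week knockouts read -0.27, -0.54, -0.37 and -0.06 and the controls 0.84, 0.00, 0.81 and 0.31, a difference of -0.80 ± 0.22 (adjusted p = 0.157). All knockouts lay below all controls, although the controls spanned a wide range. The 2-week groups overlapped, at -0.08, 0.55 and -0.11 in knockouts and 0.33, 0.24, -0.39 and 0.04 in controls. Its head-to-head neighbour Mrpl46 was lower by 0.26 ± 0.16 at 10 weeks (adjusted p = 0.652), reading 0.00, -0.37, 0.16 and 0.01 in knockouts against 0.49, 0.27, 0.17 and -0.07 in controls, with overlap.

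The remaining genes with the smallest p on the lower side at 10 weeks all overlapped between groups. Mrpl42 differed by -0.22 ± 0.11 (adjusted p = 0.522), Mrpl50 by -0.46 ± 0.25 (0.606), Mrpl47 by -0.30 ± 0.18 (0.663) and Mrps2 by -0.32 ± 0.26 (0.770). The last 2 rested on 1 control each: without control replicate 3, at 0.85, Mrpl47 differed by -0.09, and without control replicate 4, at 1.12, Mrps2 differed by -0.05. Mrpl42 was the one with the same difference at both times, -0.22 ± 0.11 at 2 weeks (adjusted p = 0.741). Its 2-week knockouts, at -0.13, -0.01 and -0.12, lay below its controls at 0.02, 0.11, 0.07 and 0.31. The probes of Mrpl47 disagreed at 10 weeks, at -0.80, 0.25 and -0.35.

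**Figure D3:**
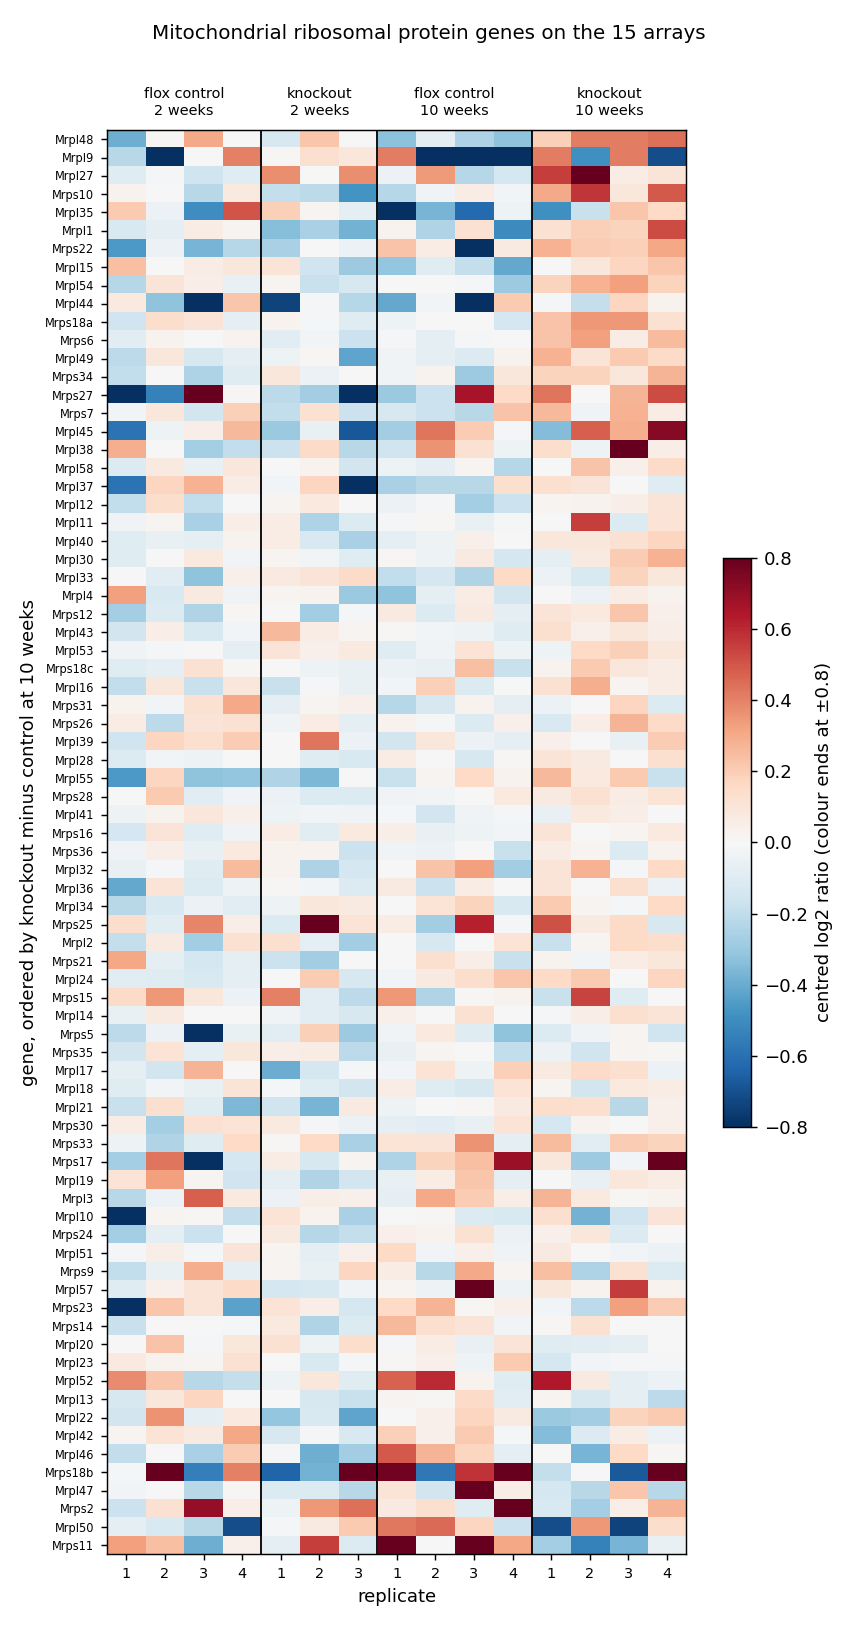
Centred log2 ratio of each of the 78 genes (rows, ordered by the difference between knockouts and controls at 10 weeks) on the 15 arrays (columns, by group and replicate). Red is higher and blue lower, with the colour scale ending at ±0.8. The 4 columns of 10-week knockouts are mostly red in the upper rows, from Mrpl48 down. Single arrays of many genes go past the scale, among them Mrps18b in every group, Mrpl9 in controls and Mrps27 in the 2-week knockouts (-1.80).

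At 2 weeks the picture was different. Of the 78 genes, 28 (35.9%) lay higher in knockouts, where 46.3% of all genes did, and the median difference was -0.036 against -0.022 over all genes. With quantile normalisation 32 genes lay higher and the median was -0.017, against 0.00 over all genes. Leaving out 1 array gave 25 to 38 genes and medians from -0.055 to -0.007, the last without 2-week knockout replicate 3. None passed the test, limma with Benjamini-Hochberg adjustment, at which 0.00512% of all genes were called. None had an unadjusted p under 0.05 in either direction, against 3.62% of all genes higher and 3.63% lower. The smallest adjusted p was 0.698. In 5 genes (6.4%), Mrpl27, Mrpl33, Mrpl34, Mrpl50 and Mrpl53, all knockouts lay above all controls, and in 3 (3.8%), Mrpl1, Mrpl23 and Mrpl42, all lay below, against 4.26% and 4.52% of all genes. These shares were near those of all genes.

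The lower genes with the smallest p at 2 weeks were Mrpl22, whose bacterial counterpart lines the exit tunnel of the nascent chain, then Mrpl1, Mrps10, Mrpl19, Mrpl42 and Mrpl15. Mrpl22 read -0.31, -0.12 and -0.42 in knockouts and -0.15, 0.36, -0.08 and 0.08 in controls (-0.33 ± 0.16, adjusted p = 0.698), and Mrpl19 differed by -0.23 ± 0.12 (adjusted p = 0.739). In both genes 1 control lay among the knockouts. On the higher side Mrpl43 differed by 0.17 ± 0.09 (adjusted p = 0.739), Mrpl34 by 0.16 ± 0.10 (0.781), Mrpl27 by 0.34 ± 0.21 (0.782) and Mrpl33 by 0.20 ± 0.12 (0.785).

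Mrps34 differed by 0.16 ± 0.11 (adjusted p = 0.787) and Mrpl50 by 0.37 ± 0.27 (0.790). The 2 probes of Mrpl50 gave -0.13 and 0.88 at 2 weeks, so its difference rests on 1 of them. Mrpl27 also lay higher at 10 weeks, as given above. At 2 weeks its knockouts read 0.37, 0.00 and 0.37 and its controls -0.10, -0.01, -0.16 and -0.10. The lowest knockout there barely exceeded the highest control.

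**Figure D4:**
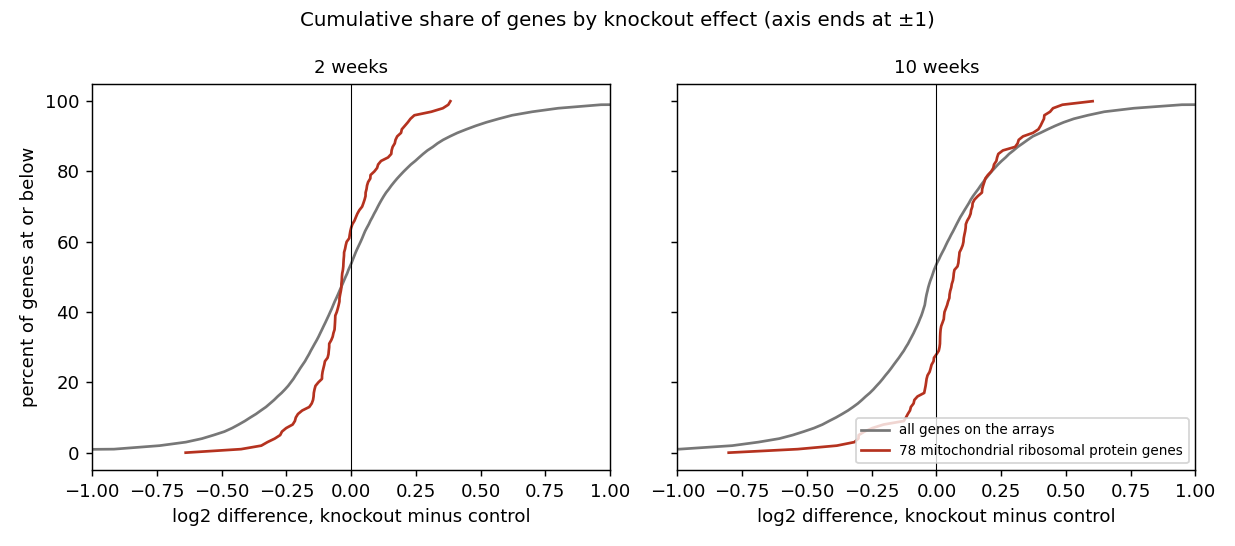
Cumulative share of genes by log2 difference between knockout and control hearts at 2 weeks (left) and 10 weeks (right), for all 19532 genes (grey) and the 78 mitochondrial ribosomal protein genes (red). The red curve crosses 50% at -0.036 at 2 weeks and at 0.066 at 10 weeks, and the grey curve at -0.022 and -0.018.

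The signs at both times were set side by side for each gene. Of the 78 genes, 36 lay below 0 at 2 weeks and above 0 at 10 weeks, 20 lay above 0 at both, 14 below 0 at both and 8 above 0 and then below. The same pairs were not counted over all genes. Taken separately, 50 of the 78 lay below 0 at 2 weeks and 56 above 0 at 10 weeks. Whether the signs of a gene at the 2 times were linked was not tested, so the pairs show no more than these separate counts. The test of the difference between the effects gave 54 genes (69.2%) in which the effect at 10 weeks minus that at 2 weeks was above 0, against 51.1% of all genes, and a median of 0.080 against 0.0085 over all genes. No gene passed it, and 0% of all genes were called (limma, Benjamini-Hochberg). Unadjusted, p lay under 0.05 for 7 higher and 2 lower members, against 3.44% and 3.38%. So no single gene was shown to respond differently at the 2 times.

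The smallest p in this test belonged to Mrps10 (0.68 ± 0.18, adjusted p = 0.484), Mrpl15 (0.58 ± 0.16, adjusted p = 0.484), Mrpl1 (0.70 ± 0.20, adjusted p = 0.488) and Mrps6 (0.33 ± 0.12, adjusted p = 0.645). Mrps10, Mrpl15 and Mrpl1 were the genes with a lower mean at 2 weeks and a higher one at 10 weeks described above.

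**Figure D5:**
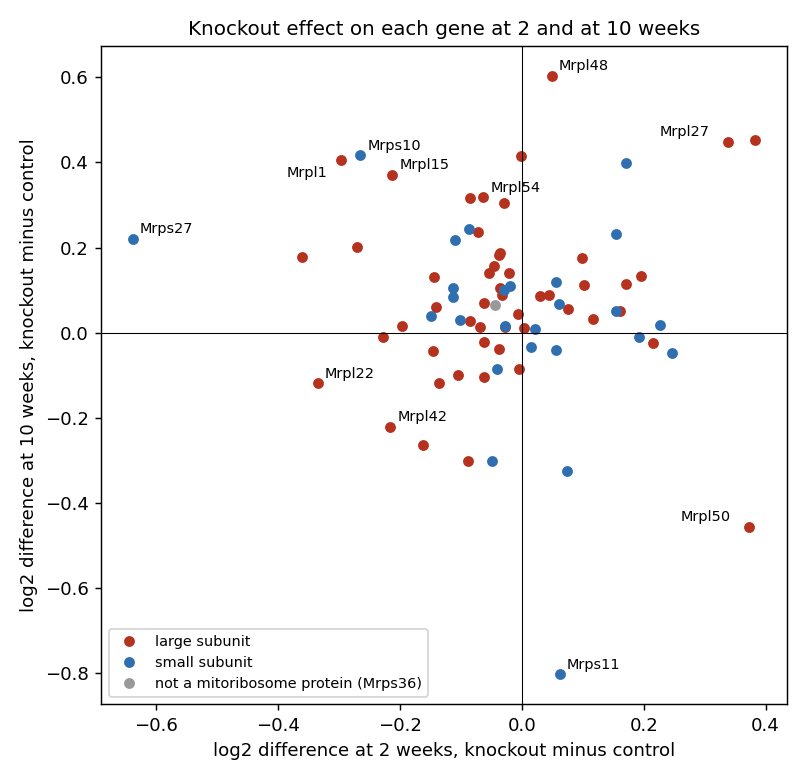
Log2 difference between knockout and control hearts at 2 weeks (x axis) against that at 10 weeks (y axis) for each of the 78 genes, coloured by subunit. Points in the upper left part, 36 of the 78 with Mrpl1, Mrps10 and Mrpl15 among them, lie below 0 at 2 weeks and above 0 at 10 weeks. That share was not counted over all genes. Mrpl48 (0.60) and Mrps11 (-0.80) lie at the ends of the y axis.

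The times were then compared within each genotype. In controls 45 of the 78 genes were higher at 10 than at 2 weeks, where 45.9% of all genes were, with a median of 0.024. Leaving out 1 array gave 36 to 52 genes, and without 2-week control replicate 1 the majority and the median turned, to 36 genes and -0.005. No gene was called (limma; 0% of all genes), and at an unadjusted p under 0.05 none was higher and 2 were lower, Mrpl15 (-0.35 ± 0.11) and Mrpl35 (-0.53 ± 0.23), against 1.93% and 2.25% of all genes. Groups were free of overlap for Mrpl24 upwards (0.20 ± 0.09) and for Mrpl15 downwards, against 0.916% and 1.80% of all genes. Mrps31 differed by -0.21 ± 0.10 with overlap.

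In knockouts 60 of the 78 genes (76.9%) were higher at 10 than at 2 weeks, where 49.0% of all genes were, and the median was 0.126 against -0.0072 over all genes. No member passed the test, at which 0.389% of all genes were called (limma). At an unadjusted p under 0.05, 10 genes were higher and none lower, against 5.19% and 6.00% of all genes. In 18 genes (23.1%) all 10-week knockouts lay above all 2-week knockouts, against 5.78%, and in none below, against 7.66%. This comparison shares its arrays with both comparisons of genotype and does not add independent evidence to them. Marker lists moved with the same groups. Of the 8 fibroblast markers 7 were lower at 10 weeks, with a median difference of -0.41, and their means ran from 0.19 to 0.82 at 2 weeks and from -0.10 to 0.21 at 10 weeks, with overlap. The red blood cell and endothelial lists separated the groups: the red blood cell list ran from -0.67 to -0.47 at 2 weeks and from -0.13 to 0.11 at 10 weeks, and the endothelial list from 0.16 to 0.25 and from -0.10 to 0.08. Their part in this difference was not tested.

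Mrps10 had the smallest adjusted p of any member in any comparison, 0.0577 from limma, with a difference of 0.66 ± 0.13 between 10-week and 2-week knockouts. Without 10-week knockout replicate 3 the difference was 0.75 and the adjusted p 0.0352. Mrpl1 followed with 0.58 ± 0.15 (adjusted p = 0.127), Mrps6 with 0.31 ± 0.09 (adjusted p = 0.176) and Mrpl54 with 0.34 ± 0.11 (adjusted p = 0.261). In all 4 genes every 10-week knockout lay above every 2-week knockout.

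Of the members whose human counterparts are linked to inherited cardiomyopathy, Mrpl3, Mrpl44, Mrps14 and Mrps22, none showed groups free of overlap at either time. Mrps22 read 0.28, 0.20, 0.19 and 0.31 in the 10-week knockouts and 0.23, 0.06, -0.97 and 0.07 in the controls (0.40 ± 0.21, adjusted p = 0.589), and without the control at -0.97 the difference was 0.13. Mrpl44 read -0.01, -0.19, 0.17 and 0.03 against -0.41, -0.02, -1.05 and 0.21 (0.32 ± 0.29, adjusted p = 0.813). In both genes the low control was replicate 3, without which Mrpl44 differed by 0.07. Mrps14 differed by -0.08 ± 0.09 and Mrpl3 by -0.02 ± 0.14, the latter from 4 probes at 0.13, 0.09, 0.19 and -0.49. At 2 weeks the 4 genes differed by -0.06 (Mrpl3), -0.08 (Mrpl44), -0.04 (Mrps14) and 0.17 (Mrps22).

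Mrps30, which despite its name belongs to the large subunit, differed by 0.01 ± 0.10 at 10 weeks (95% interval -0.21 to 0.23), and Mrps36, the dehydrogenase component, by 0.07 ± 0.08 (-0.12 to 0.25). At 2 weeks they differed by 0.0042 and -0.04. The intervals leave room for differences in either direction.

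How far the members moved together across arrays was described by correlation. Over the 15 arrays the mean correlation between pairs of the 78 genes was 0.107, against 0.0042 between pairs of all genes and 0.356 between pairs of the 76 cytosolic ribosomal proteins. With the group means taken out it was 0.062, against 0.0035 and 0.240. The members most like the mean of the other 77 over the 15 arrays were Mrpl40 (r = 0.825), Mrpl49 (0.821) and Mrpl14 (0.795), and Mrpl20 was the least like it (-0.334). With the group means taken out the order changed. Mrpl40, Mrpl49 and Mrpl14 then stood at 0.575, 0.597 and 0.687, and Mrpl20 at 0.325. The highest was then Mrps35 (0.805) and the lowest Mrps21 (-0.567). These correlations share the same arrays and carry no p. In 27 of the 35 members with more than 1 probe, the probes of the gene correlated at 0.3 or less over the 15 arrays.

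The cytosolic ribosomal proteins, which build the ribosomes outside mitochondria, gave a comparison of the same kind of gene. At 10 weeks 71 of 76 lay higher in knockouts, with a median of 0.19, where 46.5% of all genes lay higher, and 3 were called higher and none lower, where 0.686% of all genes were called. At 2 weeks 41 of 76 lay higher, where 46.3% of all genes did, with a median of 0.0042. In both families the group mean per array was highest in 10-week knockouts. Single arrays of the cytosolic family overlapped: 2-week knockout replicate 3 stood at 0.134, and 10-week knockout replicates 2 and 3 at 0.134 and 0.089. In controls 13 of these 76 genes were higher at 10 than at 2 weeks, where 45.9% of all genes were, with a median of -0.085. Lower 10-week controls thus made part of the 10-week difference. Whether the 2 families differed from each other was not tested.

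Other proteins of the mitochondrial ribosome carry names outside the Mrp series, and 4 of them were measured. At 10 weeks all 4 lay above 0, and at 2 weeks none did: Dap3 of the small subunit stood at 0.42 ± 0.26 and then -0.41 ± 0.28 at 2 weeks, Ptcd3 of the small subunit at 0.25 ± 0.12 and -0.18 ± 0.12, Gadd45gip1 of the large subunit at 0.26 ± 0.38 and -0.43 ± 0.41, and Chchd1 of the small subunit at 0.08 ± 0.09 and -0.02 ± 0.10. None passed the test at either time. With quantile normalisation 1 of the 4 lay above 0 at 2 weeks.

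The rest of the mitochondrial translation system was mixed at 10 weeks. Of 15 translation factors 9 lay above 0 with a median of 0.051. Their smallest p belonged to Mtrf1l, a release factor (-0.46 ± 0.17, adjusted p = 0.320), Mrrf, which recycles ribosomes (0.72 ± 0.29, adjusted p = 0.398), and Mtfmt, which formylates the initiator tRNA (-0.66 ± 0.30, adjusted p = 0.499). Of 24 assembly factors 11 lay above 0, with a median of -0.066. Among them the ribosomal RNA methyltransferases Mrm1 and Mrm3 stood at -0.46 ± 0.14 (adjusted p = 0.193) and -0.86 ± 0.37 (0.443), and Mettl17 at -1.12 ± 0.49 (0.461).

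Of 21 genes that charge mitochondrial tRNAs 12 lay above 0, with a median of 0.014. Gatc, part of the amidotransferase for glutaminyl-tRNA, stood at -0.88 ± 0.26 (adjusted p = 0.197), the seryl-tRNA synthetase Sars2 at 0.64 ± 0.27 (0.432) and the glutamyl-tRNA synthetase Ears2 at 0.39 ± 0.19 (0.542). Of 22 genes of mitochondrial transcription and RNA processing 10 lay above 0, with a median of -0.031, which turned to 0.006 with quantile normalisation. Ptcd1 stood at -1.64 ± 0.46 (adjusted p = 0.155), the mitochondrial RNA polymerase Polrmt at -0.46 ± 0.19 (0.401) and Lrpprc, which stabilises mitochondrial mRNAs, at -0.37 ± 0.17 (0.492).

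Among 12 regulators of nuclear genes for mitochondria 5 lay above 0, with a median of -0.22. Yy1 stood at -0.55 ± 0.15 (adjusted p = 0.163), Myc at 0.71 ± 0.26 (0.320) and Gabpa, the DNA-binding subunit of GABP, at -0.43 ± 0.24 (0.622), while Nrf1 stood at 0.09 ± 0.17 (0.933). Of mitochondrially encoded genes 1 was measured, ND4L at -0.23 ± 0.11 (adjusted p = 0.493). No knockout array reached the lowest control, as in 3.36% of all genes. At 2 weeks ND4L stood at -0.26 (limma, adjusted p = 0.667) with overlap, and the difference between the effects was 0.026. No gene of these lists was called at either time.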

How the data were processed

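Ventricle RNA of 15 mice, which the labels call biological replicates, was hybridised to Agilent arrays of 2 colours; heart RNA (500 ng) carried Cy5 and reference RNA Cy3, per the labels' protocols. The deposited value table holds 41267 probes as ratios processed by the authors and read here as log2; the scaling, like the log base, is not given in the sources used here. Every probe has a median of 0 over the arrays, so depth and level are unknown and the number of arrays limits precision. Of the probes, 32664 carried 1 symbol and were averaged into 19532 genes; 1 probe shared by Mrps25 and another gene was left out.

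Contrasts were fitted in limma 3.58.1 under R 4.3.3 (lmFit and eBayes, 1 fit of 4 group means, 11 residual degrees of freedom, two-sided p, Benjamini-Hochberg adjustment over all genes, called under 0.05). Errors are standard errors from limma or standard deviations where marked. The fit was run on simulated data as a check of the code. Genes varied independently there, and the shifts were larger than most differences given above. That run therefore says nothing on the detection of differences of this size. Alternatives covered scaling, probe choice, the arrays in the fit, array weights, a block for replicate number and leaving out each array.

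Members, lists and tests were chosen with earlier results of these data known. Named members are, for each comparison of genotype, the 6 with the smallest p in each direction, for other contrasts the 4 with the smallest p, members linked to cardiomyopathy, Mrpl12 and misnamed members; of each other list, up to 3 genes with the smallest p at 10 weeks. Mrpl40, Mrpl43, Mrpl49, Mrps34 and Mrpl27 at 10 weeks, members named for correlation or for groups without overlap, Chchd1, Gadd45gip1 and Nrf1 were named after their values were seen.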

Additional observations from a re-analysis of the deposited data

Results flagged for a closer look

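In 9 of 99 groups of 4 arrays examined for the named members and their mean, 1 array lay far from the other 3 by Dixon's criterion, which chance gives in about 1 of 20 groups. The low ones were Mrpl47 in control replicate 3 at 2 weeks (-0.22, the others -0.02 to 0.01), Mrps14 in control replicate 1 at 2 weeks (-0.18, the others -0.01 to 0) and Mrps30 in control replicate 2 at 2 weeks (-0.27, the others 0.06 to 0.12). At 10 weeks the low ones were Mrpl54 in control replicate 4 (-0.29, the others -0.01 to 0), Mrps6 in control replicate 2 (-0.08, the others -0.01 to 0), Mrps22 in control replicate 3 (-0.97, the others 0.06 to 0.23) and Mrpl48 in knockout replicate 1 (0.19, the others 0.41 to 0.44). High ones were Mrps14 in knockout replicate 2 at 10 weeks (0.12, the others 0 to 0.01) and Mrps30 in control replicate 4 at 10 weeks (0.11, the others -0.09 to -0.06).

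Outside the gene probes, 2 of 93 control spots lay above every control array on all 7 knockout arrays. Spot AT_nX_3 had a median of 8.14 in knockouts (7.60 to 8.40) against -0.23 to 0 in controls, and spot AT_nX_5 a median of 6.35 (6.12 to 6.95) against -0.38 to 0. The sources used here do not say what these spots detect.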

How the results depend on the processing

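Rescaling the arrays, other probe choices, fitting only the groups compared and array weights left 0 members called in each contrast, and the median difference at 10 weeks ran from 0.066 to 0.089. The labels do not say whether replicate numbers pair samples. Deviations of same-numbered arrays correlated at a median of 0.015 (-0.034 to 0.123, 1 of 21 pairs over 0.1). Other pairs had a median of -0.0034 (-0.082 to 0.043). The highest same-numbered values were in replicate 3: 0.123 between controls of the 2 times, and 0.084 between 10-week knockout and 2-week control. Whether same-numbered arrays were handled together was not tested. With the replicate block 0 members were called, the medians were -0.035 at 2 weeks, 0.066 at 10 weeks, 0.091 for the difference between effects, 0.024 over time in controls and 0.124 in knockouts, and Mrpl44 at 2 weeks turned to 0.03. Leaving out 1 array gave 0 to 1 called members at 10 weeks, Mrpl48 (0.60, adjusted p = 0.0382 without 2-week control replicate 1 and 0.0454 without replicate 3; 0.0382 to 0.194 over its alternatives), and 0 to 1 over time in knockouts, Mrps10 (0.75, adjusted p = 0.0352, without 10-week knockout replicate 3; 0.0352 to 0.241 over its alternatives). Medians then ran from -0.055 to -0.007 at 2 weeks, 0.056 to 0.08 at 10 weeks, 0.068 to 0.113 for the difference between effects, -0.005 to 0.036 over time in controls and 0.095 to 0.154 in knockouts.

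Signs turned at 2 weeks for single probes of Mrpl50 (-0.13) and Mrpl3 (0.05 and 0.14), and at 10 weeks for those of Mrpl3 (0.13, 0.09 and 0.19), Mrpl47 (0.25), Mrps2 (0.00) and Mrps36 (-0.03). Leaving out 1 array turned signs at 2 weeks for Mrpl3 (-0.16 to 0.07), Mrpl44 (-0.32 to 0.12), Mrps14 (-0.13 to 0.03), Mrps18a (-0.08 to 0.02), Mrps30 (-0.09 to 0.04) and Mrps36 (-0.08 to 0.02), and at 10 weeks for Mrpl3 (-0.08 to 0.04) and Mrps30 (-0.01 to 0.06). The cause was not tested. Signals over background were not analysed, and the agreement of probes and the few arrays per group limit these values.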
